A study of Homo sapiens with 12 samples.

Results

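The receptors of the EGFR family and their ligands were examined as a set of 10 genes chosen by symbol. The set held the 4 receptor genes EGFR, ERBB2, ERBB3 and ERBB4 and the 6 ligand genes HBEGF, AREG, EREG, TGFA, BTC and NRG1, and each was found in 1 of the 58037 identifiers counted. Expression was measured by RNA-seq in DU-145/tet-MUC1shRNA and LNCaP-AI/tet-MUC1shRNA cells, 2 human prostate cancer lines that carry a doxycycline (DOX)-inducible shRNA against MUC1. DU-145 cells do not depend on androgen, and LNCaP-AI cells were derived from C4-2B cells, a LNCaP subline, by long culture without androgen. By the labels both lines were grown in phenol red-free medium with charcoal-stripped serum, whereas the study's methods name this medium for LNCaP-AI and ordinary serum for DU-145. The cells were kept for 7 days in DOX at 500 ng/ml or in vehicle. Each of the 4 groups had 3 samples. The labels mark the vehicle samples as shCTL and the DOX samples as shMUC1, whereas for RNA-seq the study describes vehicle and DOX treatment of the tet-MUC1shRNA cells. Control-shRNA cells given DOX were not analysed here, so DOX itself and loss of MUC1 cannot be told apart.

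EGFR family receptors are membrane tyrosine kinases that pair with each other when a ligand binds and then signal through the RAS-ERK and PI3K-AKT arms. EGFR has many ligands, ERBB2 has no known ligand and acts as a favoured partner, ERBB3 has little kinase activity and recruits PI3K, and ERBB4 is a full kinase. AREG, TGFA, EREG, HBEGF and BTC bind EGFR, with EREG, HBEGF and BTC also binding ERBB4, whereas NRG1 binds ERBB3 and ERBB4. The ligands are made as membrane precursors that proteases such as ADAM17 cut free. In prostate cancer the family is studied as a source of growth signals that do not need androgen.

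AREG and EREG are neighbours on chromosome 4 whose levels moved together, while HBEGF had the largest rise of the members in DU-145 cells. Their promoters are therefore shown. In GRCh38 coordinates of GENCODE release 44, EPGN, EREG, AREG and BTC, all genes of EGFR ligands, lie within 486.1 kb. EREG (74365145 to 74388749) ends 56.4 kb before AREG (74445136 to 74455005), BTC (74744759 to 74794523, on the other strand) begins 289.8 kb beyond AREG, and no protein-coding gene was annotated in the gaps. EGFR lies on chromosome 7 (55019017 to 55211628), ERBB2 on 17 (39687914 to 39730426), ERBB3 on 12 (56076799 to 56103505), ERBB4 on 2 (211375717 to 212538841), TGFA on 2 (70447284 to 70554193) and HBEGF on 5 (140332843 to 140346603). Promoter windows of RefSeq (GRCh38.p14) were found for 8 of the 10 members, and ERBB3 and NRG1 had no entry. The 250 bases before the start site are printed 5′ to 3′ for AREG (chr4:74444886-74445135, plus strand), EREG (chr4:74364895-74365144, plus strand) and HBEGF (chr5:140346604-140346853, minus strand). Capitals mark matches to a cyclic AMP response element (TGACGTCA), to a TATA box, searched as the letters (TATAAA), and to a GC box, searched as the letters (GGGCGG), each on both strands.
AREG: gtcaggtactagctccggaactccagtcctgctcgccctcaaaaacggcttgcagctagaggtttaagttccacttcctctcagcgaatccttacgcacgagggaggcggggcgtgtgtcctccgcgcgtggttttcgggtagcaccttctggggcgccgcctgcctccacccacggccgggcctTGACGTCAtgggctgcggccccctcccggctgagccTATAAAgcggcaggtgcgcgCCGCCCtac
EREG: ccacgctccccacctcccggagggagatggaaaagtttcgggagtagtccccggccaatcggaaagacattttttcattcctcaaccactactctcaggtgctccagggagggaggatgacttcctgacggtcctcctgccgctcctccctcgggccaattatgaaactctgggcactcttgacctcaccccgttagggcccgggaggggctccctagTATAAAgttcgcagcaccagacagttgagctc
HBEGF: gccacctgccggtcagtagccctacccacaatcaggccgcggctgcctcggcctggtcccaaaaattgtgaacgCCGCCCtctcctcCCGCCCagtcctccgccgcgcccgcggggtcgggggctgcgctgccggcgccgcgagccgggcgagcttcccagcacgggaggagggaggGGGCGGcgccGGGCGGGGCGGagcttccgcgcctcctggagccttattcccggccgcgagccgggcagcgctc
The AREG window held 1 response element, beginning 65 bases before the start site, 1 TATA box at 29 bases and 1 GC box. EREG held 1 TATA box, at 32 bases, and neither of the other motifs. HBEGF held 5 GC boxes, of which the last 2 overlap, and neither a TATA box nor a response element. Over the 35116 windows of the same length, the response element was found in 1.65%, the TATA box in 10.7% and the GC box in 42.6%. These matches describe the letters of the windows only.

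Total counts were 10423437 to 13544153 in DU-145 samples and 16569613 to 26961777 in LNCaP-AI samples. Levels are given as counts or as CPM, counts relative to a library size of 1e6 after TMM normalization over all 12 samples. MUC1, the target of the shRNA, had 74, 60 and 59 counts in the DU-145 vehicle samples and 3 in each DOX sample, so that its level with DOX was 4.59% of that with vehicle (exact 95% interval of the counts 2.07% to 8.89%). In LNCaP-AI cells MUC1 had 36, 25 and 52 counts with vehicle and 8, 6 and 3 with DOX, or 17.6% (9.9% to 29.4%). MUC1 thus followed the labels in all 12 samples. These intervals cover counting error only. KLK3, which encodes prostate-specific antigen and marks luminal prostate cells, was at 132 to 448 CPM in the LNCaP-AI libraries and had 0 counts in each DU-145 library, and the summed level of 8 genes of other cell types (leukocyte, fibroblast and endothelial) was 2.21 to 4.57 CPM in DU-145 and 22.4 to 30.3 CPM in LNCaP-AI samples.

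The LNCaP-AI libraries did not divide by treatment. On principal component 1, which held 82.5% of the variance in log2 CPM, DOX 2 and DOX 3 lay together with vehicle 1 (here side A), and DOX 1 lay with vehicle 2 and vehicle 3 (side B). The sources used here give no batch for these libraries, and the sides were read from the same counts, so differences between them are described without a test. AREG, which encodes amphiregulin, had 11, 9 and 6 counts in the side A libraries and 9377, 16456 and 11941 in those of side B. The libraries of each side were alike whatever their treatment, and their ranges were far apart (0.338 to 0.514 CPM on side A, 486 to 572 CPM on side B). EREG, the gene of epiregulin, had 2, 0 and 3 counts on side A and 817, 1017 and 860 on side B, and EPGN, the gene of epigen, had 0 counts in each side A library and 59 to 72 on side B. BTC followed with 2 to 3 counts against 32 to 50, as did NRG1 with 0 against 4 to 8. The other measured members did not show a split of this size. EGFR was 73.7 to 118 CPM on side A and 287 to 350 on side B, TGFA differed 2.64-fold between the means of the sides, and the HBEGF means of 5.26 and 5.49 CPM were close. ERBB2 and ERBB3 had mean levels on side B of 0.664 and 0.781 of those on side A. Side A holds 1 vehicle and 2 DOX libraries and side B 2 and 1, so the side means mix side with treatment. ERBB2 with vehicle was 86.5 CPM on side A and 62.3 and 71.6 on side B. With DOX it was 159 and 153 CPM on side A and 131 on side B.

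Markers of DU-145 cells moved with the sides. Of the 4 listed, CAV1 (1 to 6 counts on side A, 1617 to 2412 on side B), CD44 (0 to 3 against 1483 to 2405) and AXL (3 to 5 against 978 to 1694) were split like AREG, whereas VIM was not (605 to 993 against 509 to 1280). Their summed level was 27.4 to 57.2 CPM on side A and 243 to 257 on side B, compared with 1960 to 2820 in DU-145 samples. AREG on side B, at 486 to 572 CPM, was above its own level in every DU-145 sample (108 to 251 CPM), and EPGN on side B (2.5 to 3.16 CPM) was above the DU-145 vehicle mean of 0.277. HBEGF, at 44.4 CPM or more in DU-145 samples, was no higher than 7.09 CPM on side B. Among the listed genes of other cell types, PECAM1 (0 to 1 counts on side A, 36 to 72 on side B) and DCN (0 to 2 against 18 to 20) also divided with the sides. The others did not, among them COL1A1 (18.1 to 20.6 CPM on side A, 16.5 to 23 on side B), which made up most of their summed level. MUC1 followed the treatment and not the side. Whether an admixture of cells, a culture or a preparation moved with the sides was not tested. In bulk RNA, fewer cells of a type and less RNA per cell cannot be told apart.

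**Figure D1:**
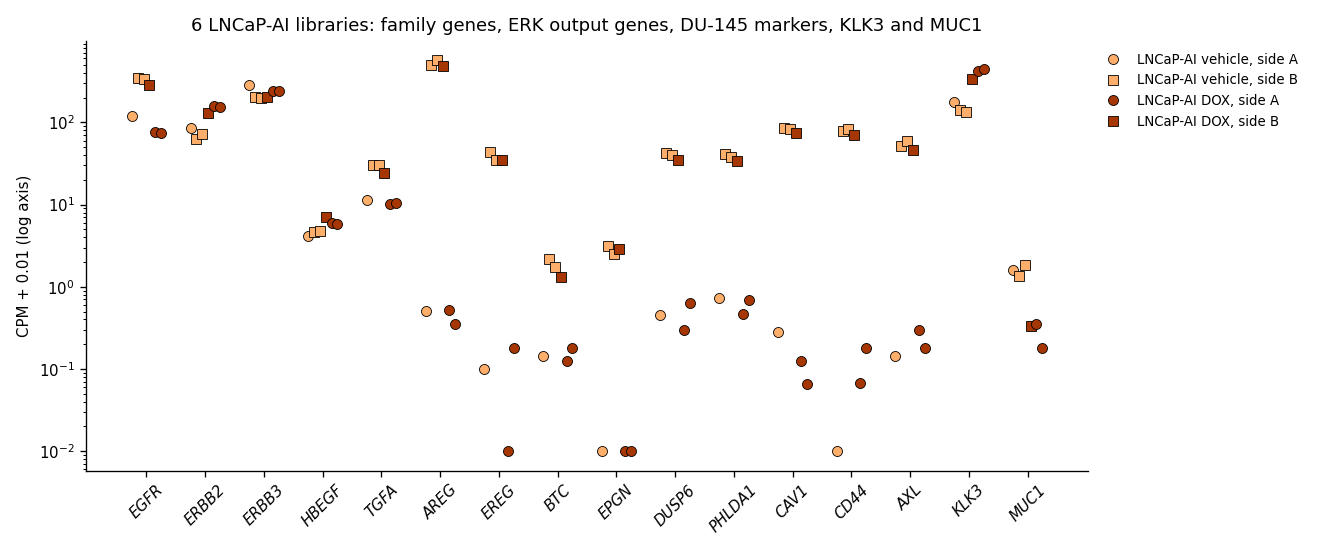
Levels of family genes, ERK output genes (DUSP6, PHLDA1), DU-145 markers (CAV1, CD44, AXL), KLK3 and MUC1 in the 6 LNCaP-AI libraries, as CPM plus 0.01 on a log axis. Light points are vehicle and dark points DOX, and circles are side A and squares side B. AREG lay at 0.338 to 0.514 CPM in the circles and 486 to 572 CPM in the squares, while MUC1 separated light from dark points.

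With vehicle, and per length of all annotated exons, EGFR was the most abundant receptor in all 3 DU-145 samples. On that scale it was ERBB3 in LNCaP-AI vehicle 1 and EGFR in vehicle 2 and 3. Levels of different genes are compared as CPM per kilobase (CPM per kb) of all annotated exons of the gene joined, a length that can exceed that of the transcript expressed. In DU-145 vehicle samples EGFR stood at 32.5 ± 2.17 CPM per kb (SD, n = 3), ERBB2 at 7.94 ± 0.464, ERBB3 at 1.81 ± 0.0539 and ERBB4 at 0, with no overlap between neighbours. EGFR therefore made up 75.3% to 78.2% of the summed per-length level of the 4 receptors. In LNCaP-AI vehicle samples ERBB3 stood at 19.6 ± 4.28, EGFR at 16.9 ± 8.22 and ERBB2 at 7.12 ± 1.18 CPM per kb, and the ranges of ERBB3 (17.1 to 24.6) and EGFR (7.42 to 22) overlapped. Of the receptor sum, EGFR made up 18.4% and ERBB3 60.8% in vehicle 1, of side A, against 48.6% and 38% in vehicle 2 and 47% and 37.7% in vehicle 3, of side B. With the length of the canonical transcript instead, the means were 52.3 (EGFR), 18 (ERBB2) and 3.78 (ERBB3) CPM per kb in DU-145 vehicle samples. In LNCaP-AI vehicle samples they were 40.9 (ERBB3), 27.2 (EGFR) and 16.1 (ERBB2), so the means kept their order. By this length ERBB3 lay slightly above EGFR in LNCaP-AI vehicle 2 and 3 as well, so which of them led there depended on the length used. ERBB4 had 0 counts in all DU-145 samples, which at a floor of 3 counts allows up to 0.304 CPM in a library, and 1 to 6 counts in LNCaP-AI samples, and was not tested.

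Of the 9 members tested at baseline, 5 were higher in DU-145 vehicle samples and 1 was lower, compared with 30.2% and 35.0% of the 15628 genes tested (edgeR's quasi-likelihood test, adjusted p under 0.05). ERBB3, the kinase-poor partner for neuregulins, had 20.5, 21.7 and 21.5 CPM in DU-145 and 288, 201 and 200 CPM in LNCaP-AI vehicle samples. Every LNCaP-AI sample was above every DU-145 sample, and the difference was 10.5-fold (log2 -3.40, SE 0.171, adjusted p = 9.42e-06). The direction and call held in each of the 14 alternatives, with log2 values of -3.82 to -3.28. EGFR had 558, 498 and 499 CPM in DU-145 and 118, 350 and 340 CPM in LNCaP-AI vehicle samples. These did not overlap either, but the 1.97-fold difference was close to the threshold (log2 0.98, SE 0.368, adjusted p = 0.0483) and was lost in 10 of 14 alternatives (adjusted p up to 0.126), among them each fit without DU-145 vehicle 1, 2 or 3 or without LNCaP-AI vehicle 2 or 3. ERBB2 had overlapping levels of 82 ± 4.79 CPM and 73.4 ± 12.2 CPM (SD, n = 3 each) and did not pass (log2 0.20, 95% interval -0.12 to 0.51). Without LNCaP-AI vehicle 1 it passed (log2 0.25, adjusted p = 0.0267), and against vehicle 1 alone, which is 1 library, its sign turned (-0.14).

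Among the ligands, HBEGF, which encodes a heparin-binding growth factor, showed the clearest baseline difference. It had 44.4, 47.8 and 48 CPM in DU-145 and 4.15, 4.6 and 4.79 CPM in LNCaP-AI vehicle samples. The lines did not overlap, and DU-145 was 10.6-fold higher (log2 3.41, SE 0.117, adjusted p = 3.06e-06). TGFA, the gene of transforming growth factor alpha, had 113, 113 and 119 CPM against 11.3, 30.4 and 30.3 CPM, a difference of 4.92-fold (log2 2.30, SE 0.349, adjusted p = 0.000956). BTC, the gene of betacellulin, was 6.91 ± 0.451 CPM against 1.34 ± 1.06 (SD, n = 3; log2 2.41, adjusted p = 0.0162), and this call was lost without DU-145 vehicle 1 (adjusted p = 0.0521) or vehicle 3 (0.0508). NRG1 had 19 to 25 counts in DU-145 and 0, 4 and 8 in LNCaP-AI vehicle samples (log2 3.48, SE 0.594, adjusted p = 0.00167), the latter near the floor. BTC and NRG1 in LNCaP-AI moved with the sides. For AREG and EREG the result depended on vehicle 1. AREG did not pass with all samples (log2 -1.63, 95% interval -5.02 to 1.77, adjusted p = 0.349) and was lower in DU-145 when vehicle 1 was left out (log2 -2.29, adjusted p = 9.84e-16). Vehicle 1 is a single library and had 0.491 CPM of AREG, from 11 counts, compared with 108 to 117 CPM in DU-145 vehicle samples. EREG did not pass with all samples (log2 2.17, adjusted p = 0.135) and was higher in DU-145 without vehicle 1 (log2 1.52, adjusted p = 5.99e-11). Against vehicle 1, with its 2 counts of EREG, no fold is given.

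**Figure D2:**
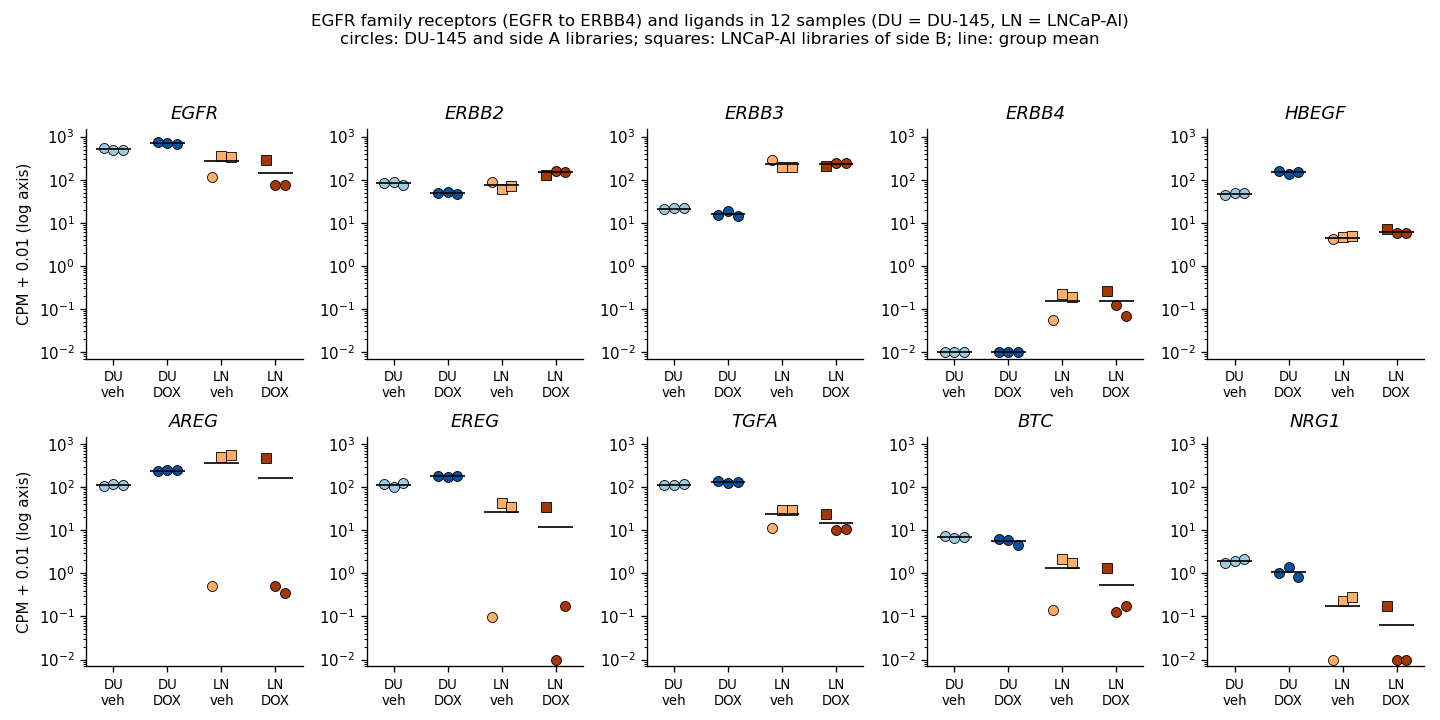
Level of each member in the 12 samples, as CPM plus 0.01 on a log axis, with 1 panel per gene and a line at the group mean. The DU-145 samples of a group lie close together, whereas AREG, EREG, BTC and NRG1 in LNCaP-AI fall into squares (side B) and circles (side A). ERBB3 lies at 14.6 to 21.7 CPM in DU-145 and 200 to 288 CPM in LNCaP-AI.

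In DU-145 cells DOX was followed by more EGFR RNA and less ERBB2 and ERBB3 RNA, and by more RNA of 4 of the 6 ligands. Of 9 members tested, 5 were higher and 3 lower with DOX, and BTC did not pass. Across all 13644 genes tested, 26.3% were higher and 25.3% lower, and the count of members has to be read against these shares. The median log2 change was -0.38 over the 3 receptors tested and 0.44 over the 6 ligands, and 0 over all genes.

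EGFR rose from 558, 498 and 499 CPM with vehicle to 763, 729 and 662 CPM with DOX. The groups did not overlap, and the rise was 1.39-fold (log2 0.48, SE 0.0757, adjusted p = 3.23e-05 by edgeR). ERBB2, the receptor without a ligand, had 82.8, 86.3 and 76.8 CPM with vehicle and 49, 52.5 and 46.4 CPM with DOX. It fell in every DOX sample (log2 -0.73, SE 0.0752, adjusted p = 1.96e-07). PGAP3 and MIEN1 overlap ERBB2 on the opposite strand and, although the libraries were stranded, the setting used for counting is not given in the sources used here. They were chosen after their values were seen. Both rose in DU-145 cells, PGAP3 by log2 0.35 (adjusted p = 0.0384) and MIEN1 by 0.49 (adjusted p = 0.000421), opposite to ERBB2. ERBB3, already the lowest of the 3 receptors detected in this line, had 20.5, 21.7 and 21.5 CPM with vehicle and 15.3, 18.4 and 14.6 CPM with DOX (log2 -0.38, SE 0.107, adjusted p = 0.00555), without overlap. On the per-length scale the share of EGFR among the receptors lay between 75.3% and 78.2% with vehicle and between 87.3% and 88.8% with DOX. That of ERBB2 lay between 17.9% and 20.2% with vehicle and between 8.81% and 9.7% with DOX.

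HBEGF had 542, 472 and 572 counts with vehicle and 1715, 1765 and 1731 with DOX. In CPM these were 44.4, 47.8 and 48 against 162, 139 and 154. All DOX samples were above all vehicle samples, and the rise was 3.26-fold (log2 1.70, SE 0.0781, adjusted p = 4.15e-12). Of the 3583 genes called higher, 96 (2.68%) rose by more. AREG had 108, 117 and 114 CPM with vehicle and 234, 247 and 251 CPM with DOX, a rise of 2.17-fold (log2 1.12, SE 0.0681, adjusted p = 1.66e-10), and 8.85% of the genes called higher rose by more. Its neighbour EREG had 117, 101 and 128 CPM with vehicle and 186, 177 and 185 CPM with DOX, a rise of 1.59-fold (log2 0.67, SE 0.0798, adjusted p = 1.12e-06). Neither gene's groups overlapped. TGFA was higher by less, at 113, 113 and 119 CPM against 141, 128 and 130 CPM (1.16-fold, log2 0.21, SE 0.0687, adjusted p = 0.0142), and this call was lost without vehicle 1 (adjusted p = 0.078) or DOX 1 (0.0664).

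The remaining ligands went the other way or did not pass. NRG1, the neuregulin gene, had 21, 19 and 25 counts with vehicle and 11, 18 and 9 with DOX. It was called lower (log2 -0.79, SE 0.308, adjusted p = 0.0387), but few counts stand behind it, and the call was lost in 7 of 13 alternatives, among them the fits without vehicle 2, vehicle 3, DOX 1 or DOX 3. BTC had 7.38, 6.48 and 6.89 CPM with vehicle and 6.32, 5.91 and 4.61 CPM with DOX, a difference that did not pass (log2 -0.30, 95% interval -0.64 to 0.04, adjusted p = 0.137). Per length, AREG held first place among the ligands in both groups, with 68.7 ± 2.76 CPM per kb with vehicle and 149 ± 5.21 with DOX (SD, n = 3). HBEGF moved from the fourth place among the ligands (15.6 ± 0.672 CPM per kb) to the second (50.7 ± 3.87), above EREG (32 ± 0.844) and TGFA (27 ± 1.36), and these DOX ranges did not overlap. With vehicle TGFA (23 to 24.3) and EREG (17.7 to 22.5) were close but did not overlap. The share of HBEGF in the summed per-length ligand level was 11.7% to 12.3% with vehicle and 18.1% to 20.8% with DOX, whereas that of TGFA was 17.6% to 18.1% and 9.98% to 11%. With the canonical transcript length HBEGF stood at 19.8 CPM per kb with vehicle and 64.2 with DOX, again in the fourth and then the second place.

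**Figure D3:**
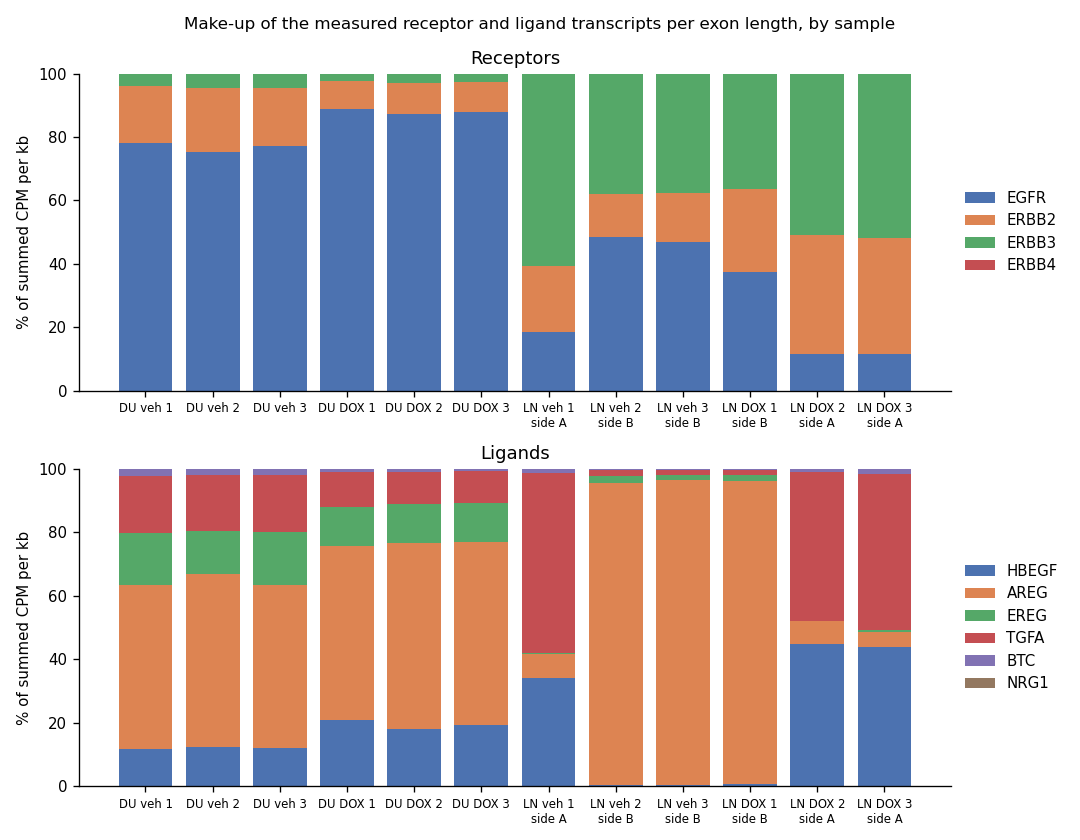
Share of each gene in the summed CPM per kb of the 4 receptors (top) and the 6 ligands (bottom), 1 bar per sample. EGFR makes up 87.3% to 88.8% of the receptor bar in DU-145 DOX samples. In LNCaP-AI the AREG share depends on the side, from 4.72% to 96%.

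Cell markers moved with the DOX effect in DU-145 cells. All 4 epithelial genes listed (KRT8, KRT18, EPCAM and CDH1) were higher, with a summed level of 869 to 934 CPM with vehicle and 2000 to 2130 CPM with DOX, and 3 of the 4 DU-145 markers (VIM, CAV1 and AXL) were lower, while CD44 was higher (log2 0.30, adjusted p = 0.00462). The 4 had a summed level of 2450 to 2820 CPM with vehicle against 1960 to 2200 CPM with DOX. Their part in the changes of the members was not tested. When all 12 samples shared 1 estimate of the spread, which then included the spread between the LNCaP-AI sides, ERBB2 and HBEGF were the 2 members still called in DU-145 cells, and AREG (log2 1.11, adjusted p = 0.762), EREG (0.66, 0.822) and EGFR (0.47, 0.576) kept their size and lost the call. The samples were cultured in triplicate, and the p-values measure the spread between these samples, which may be technical.

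In LNCaP-AI cells ERBB2 was the single member called with DOX among 8 tested. It was higher, whereas 7.22% of the 16030 genes tested were higher and 5.52% lower. ERBB2 had 86.5, 62.3 and 71.6 CPM with vehicle and 131, 159 and 153 CPM with DOX. No vehicle sample reached the level of a DOX sample, and the rise was 1.97-fold (log2 0.98, SE 0.153, adjusted p = 0.0179). It was present on both sides of the division (log2 0.80 within side A and 0.96 within side B), and with the side as a covariate it was 0.88 (adjusted p = 1.41e-08). Without DOX 2 (adjusted p = 0.0981) or DOX 3 (0.0963), which leaves 2 DOX libraries from opposite sides, the size was kept and the call was lost. Here the overlapping genes moved in the same direction as ERBB2, with PGAP3 higher by log2 1.05 (adjusted p = 0.0183) and MIEN1 by 0.72 (0.0335). Whether reads of one of these genes were counted for another was not tested. Cell markers moved with DOX in this line too. Of the 8 luminal prostate genes listed, 5 were higher (KLK3 among them) and 0 lower. VIM was also higher (log2 0.93, adjusted p = 0.0123 by edgeR), while CAV1, CD44, AXL and the 4 epithelial genes were not called. Their part in the ERBB2 change was not tested.

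HBEGF also lay higher with DOX in LNCaP-AI cells, at 4.15, 4.6 and 4.79 CPM with vehicle and 7.09, 5.88 and 5.75 CPM with DOX. The groups did not overlap, but the change of 1.36-fold did not pass (log2 0.44, SE 0.158, adjusted p = 0.12). Within the sides the difference was 0.43 (A) and 0.57 (B), and with the side as a covariate HBEGF was called (log2 0.51, adjusted p = 0.00927). EGFR had 118, 350 and 340 CPM with vehicle and 287, 76.1 and 73.7 CPM with DOX. The groups overlapped and no change was called (log2 -0.91, 95% interval -2.53 to 0.72, adjusted p = 0.415), while the difference was -0.71 within side A and -0.28 within side B, and -0.49 with the covariate (adjusted p = 0.000174). Without DOX 1, the side B library of its group, EGFR was called lower (log2 -1.85, adjusted p = 0.0386). ERBB3 had 288, 201 and 200 CPM with vehicle and 204, 244 and 243 CPM with DOX (log2 -0.03, 95% interval -0.46 to 0.41), with overlapping groups and a sign that depended on the fit.

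For the ligands that divided with the sides, the LNCaP-AI data could not resolve a DOX effect from all 6 libraries. The 95% interval of the AREG log2 change was -7.41 to 5.10, that of EREG -6.69 to 4.34 and that of BTC -4.10 to 1.53. Within the sides the log2 differences were much smaller, at -0.23 (A) and -0.15 (B) for AREG and -0.25 and -0.18 for EREG, although side A holds a handful of counts of each. TGFA, at 11.3, 30.4 and 30.3 CPM with vehicle and 23.9, 10.2 and 10.5 CPM with DOX, was not called (log2 -0.71, 95% interval -1.91 to 0.49), and was -0.28 with the side as a covariate (adjusted p = 0.0356). Because the sides were taken from these counts, the covariate fit is a comparison and no independent support. NRG1 and ERBB4 were below the filter in this line.

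**Figure D4:**
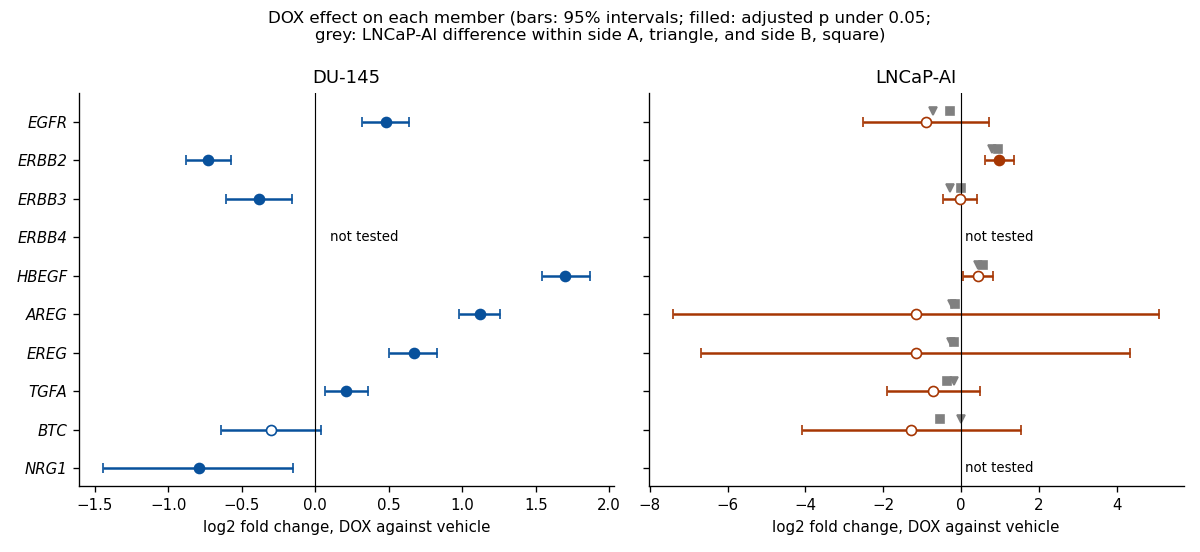
log2 fold change of each member with DOX in DU-145 (left) and LNCaP-AI cells (right), with 95% intervals. Filled points have an adjusted p under 0.05, and grey marks in the right panel give the difference within side A (triangle) and side B (square). The axes differ: the LNCaP-AI interval of AREG runs from -7.41 to 5.10, that of DU-145 from 0.98 to 1.26.

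An interaction term fitted to the 12 samples compared the response to DOX in the 2 lines. ERBB2 differed by log2 1.74 (LNCaP-AI minus DU-145; SE 0.170, adjusted p = 0.000463) and HBEGF by -1.23 (SE 0.141, adjusted p = 0.00106). ERBB2 thus fell in DU-145 and rose in LNCaP-AI cells, and the HBEGF change was smaller in LNCaP-AI. The other 7 members tested did not pass, and 5.43% of 16800 genes had a higher and 3.76% a lower difference. The ERBB2 difference was called in each of the 19 alternatives, with log2 values of 1.63 to 1.87, and the HBEGF difference in 18 of the 19. Without LNCaP-AI DOX 1, EGFR (log2 -2.32, adjusted p = 0.00806), AREG, EREG and TGFA (-1.42, 0.037) were called as well, and without LNCaP-AI vehicle 1, ERBB3 was (0.59, 0.0257). Leaving out DOX 1 leaves a DOX group of side A alone, and leaving out vehicle 1 leaves a vehicle group of side B alone. These fits therefore mix the side with the response to DOX. With the side as a covariate the log2 difference was -0.92 for EGFR (adjusted p = 1.56e-06), -1.26 for AREG (3.96e-08), -0.83 for EREG (0.000499) and -0.46 for TGFA (0.00373). The sides were taken from these same counts, so these p-values are no independent support. On side A, AREG rests on 6 to 11 counts and EREG on 0 to 3.

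The other ligands of the family and the genes around the receptors were described by lists. Of the 5 other ligands, EGF and NRG4 passed in both lines. In DU-145 cells 1 of 3 tested was higher and 1 lower, against 26.3% and 25.3% of all genes tested. In LNCaP-AI cells 2 of 4 were higher and 0 lower, against 7.22% and 5.52%. The share of all genes passing in both lines was not computed. EGF, the first ligand known for EGFR, had 4.75, 3.34 and 3.28 CPM with vehicle and 2.17, 1.58 and 2.22 CPM with DOX in DU-145 cells (log2 -0.94, SE 0.244, adjusted p = 0.00334). In LNCaP-AI cells it had 6.29, 4.44 and 4.79 CPM with vehicle and 10.6, 12.1 and 13.3 CPM with DOX (log2 1.18, SE 0.195, adjusted p = 0.0195). Neither line's groups overlapped, the directions were opposite, and the difference between the lines passed (log2 2.14, adjusted p = 0.00281). NRG4, a ligand of ERBB4, was higher in both lines, at 2.23 to 2.38 CPM with vehicle and 5.75 to 9.72 CPM with DOX in DU-145 (log2 1.74, SE 0.218, adjusted p = 1.98e-06) and at 0.66 to 1.12 CPM and 2.77 to 4.79 CPM in LNCaP-AI cells (log2 2.09, SE 0.316, adjusted p = 0.0168). Its difference between the lines did not pass (log2 0.38, adjusted p = 0.598), and the receptor it binds was at 0 counts in DU-145 samples. The protein-coding gene FBXO22 overlaps NRG4 on the opposite strand. Whether reads of FBXO22 were counted for NRG4 was not tested. EPGN and NRG3 were not tested in DU-145, nor NRG2 in LNCaP-AI cells.

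Among the 4 genes of ligand shedding, RHBDF1, an inactive rhomboid that takes part in ADAM17 transport, passed in both lines. It was lower with DOX in DU-145 (13, 16.7 and 14.3 CPM against 6.61, 7.4 and 7.18; log2 -1.03, SE 0.136, adjusted p = 3.71e-06) and higher in LNCaP-AI cells (19.2, 19.7 and 22.1 CPM against 27.6, 33.8 and 27.8; log2 0.52, SE 0.120, adjusted p = 0.0423). The groups overlapped in neither line, and the difference between the lines passed (log2 1.60, adjusted p = 0.000914). ADAM10, ADAM17 and RHBDF2 passed in neither line. Of all genes tested, 25.3% were lower in DU-145 and 7.22% higher in LNCaP-AI cells. Of 12 genes that restrain the receptors, DU-145 cells had 3 called higher with DOX and 3 called lower, shares near the 26.3% and 25.3% of all genes. LNCaP-AI cells had 1 of each, where 7.22% of all genes were higher and 5.52% lower. SOCS4, an adaptor that promotes EGFR degradation, was lower in both, with log2 -0.74 (SE 0.109, adjusted p = 1.44e-05) in DU-145 and -0.49 (SE 0.0755, adjusted p = 0.0175) in LNCaP-AI cells, and the difference did not pass (adjusted p = 0.357). SOCS4 had 106, 78.9 and 119 CPM with vehicle and 55.5, 62.1 and 63.9 CPM with DOX in DU-145 cells, and 60.8, 65.5 and 60 CPM against 45.2, 45.6 and 44.8 CPM in LNCaP-AI cells, without overlap in either.

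Of the 16 genes of the RAS-ERK arm, 7 rose and 1 fell in DU-145 cells (median log2 0.19) against 26.3% and 25.3% of the genes tested, and 0 were called by edgeR in LNCaP-AI cells (5 at an unadjusted p under 0.05, and 4 by DESeq2). Of the 8 tested genes of the PI3K-AKT arm, 1 was higher and 1 lower in DU-145, below those shares, and 0 were called by edgeR in LNCaP-AI cells (1 at an unadjusted p under 0.05, and 1 by DESeq2). Among all genes tested in LNCaP-AI cells, edgeR called 7.22% higher and 5.52% lower. MAP2K1, the ERK kinase MEK1, had the largest called change in these arms (log2 0.67, SE 0.0696, adjusted p = 2.03e-07 in DU-145). The list of ERK output, genes that ERK signalling is known to induce, had 7 of 10 genes higher and none lower in DU-145 cells, against 26.3% higher among the genes tested. Its median log2 change was 0.50, compared with 0 over all 13644 genes. SPRY4 (log2 1.31, adjusted p = 1.23e-09) and DUSP6 (0.93, adjusted p = 2.3e-07), which feed back on the pathway, and the factor gene ETV5 (0.73, adjusted p = 5.6e-08) were among them. The other 3, SPRY2, CCND1 and EPHA4, had log2 values of 0.17, 0.08 and -0.07. MAP2K1 and the ERK output genes named were chosen after their values were seen. The summed level of the list was 1210 to 1330 CPM with vehicle and 1580 to 1680 CPM with DOX.

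Against 7.22% higher and 5.52% lower among all genes tested in LNCaP-AI cells, 1 of 9 ERK output genes tested was called. This was CCND1, the gene of cyclin D1, which was higher (log2 0.70, SE 0.0775, adjusted p = 0.0123). The other 8 were not called, and their levels differed between the sides without overlap. The gap was smallest for SPRY2, with 2.14 to 2.59 CPM on side A and 7.46 to 8.94 CPM on side B, and EPHA2 had 7.05 to 8.51 against 79.1 to 101 CPM. DUSP6 had 5 to 11 counts on side A and 787 to 1160 on side B, PHLDA1 8 to 16 against 770 to 1078, ETV4 8 to 23 against 514 to 950 and SPRY4 2 to 33 against 361 to 665. CAV1, CD44 and AXL moved with them, and their part was not tested.

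**Figure D5:**
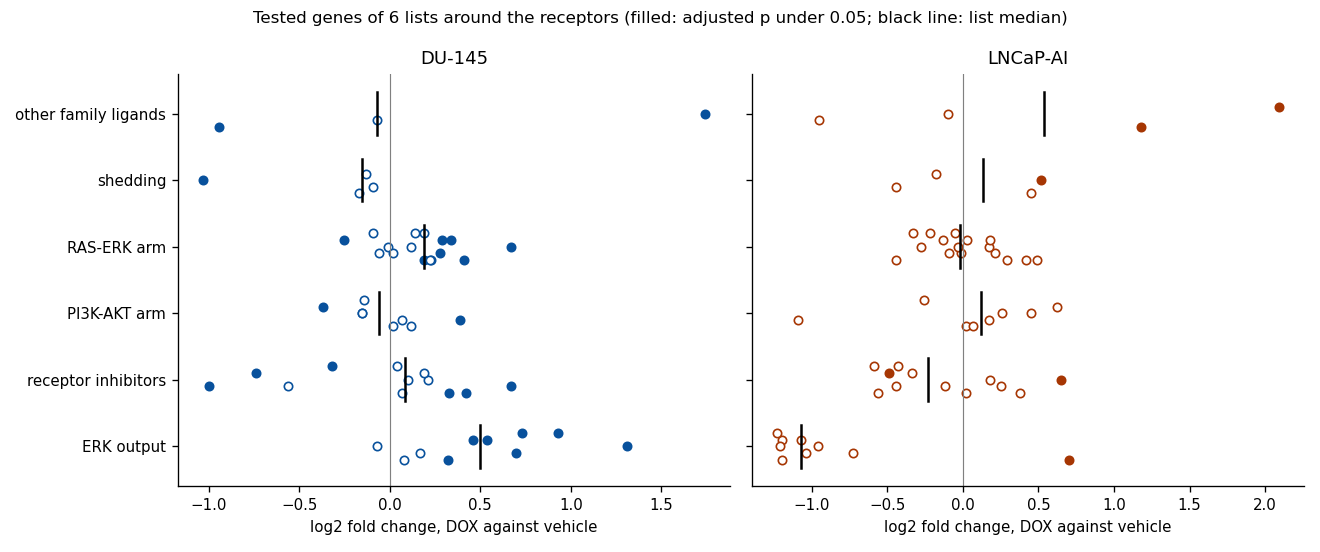
log2 fold change with DOX of each tested gene of 6 lists in DU-145 (left) and LNCaP-AI cells (right). Filled points have an adjusted p under 0.05 and the black lines are list medians. In DU-145 cells 7 of the 10 ERK output genes are filled and to the right of 0, whereas in LNCaP-AI cells CCND1 is the filled one.

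The genes whose pattern was most like that of a member were ranked by Pearson's r of log2 CPM over the 12 samples. For EGFR these included GPRC5A (r = 0.9955) and ANKRD28 (0.9938), for ERBB3 they were NFIX (0.9985), SREBF1 (0.9984) and IGFBP5 (0.998), and for HBEGF GALC (0.9952), MEF2D (0.9951) and SLMAP (0.9939). The 12 points share 2 cell lines, so a gene that differs strongly between the lines reaches a high r, and the values are a description.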

How the data were processed

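RNA-seq was analyzed for 12 samples of DU-145/tet-MUC1shRNA and LNCaP-AI/tet-MUC1shRNA cells, 3 per group, grouped by the sample labels. The authors prepared stranded mRNA libraries, aligned reads with STAR (2.7.0 in the submitters' processing notes, with GRCh38.p7) and deposited counts of reads per gene, not normalized. The counting tool and its strand setting are not given in the sources used here. Among the members and MUC1, another protein-coding gene overlaps ERBB3, NRG1 and MUC1 on the same strand. Whether reads were lost to or gained from these overlapping genes was not tested. Depths were 10423437 to 26961777 counts, which sets the precision of low genes.

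Identifiers were matched to symbols, positions and exon lengths by GENCODE release 44. Genes reaching 10 counts in 3 or more of the samples fitted were tested with edgeR 4.0.16 (TMM, quasi-likelihood test, Benjamini-Hochberg over all genes, adjusted p under 0.05). The within-line fits were run on simulated counts, drawn independently for each sample. These held no division into sides, so they do not check the fits for it. Standard errors derive from the fold change and F. Named genes were the members, MUC1, list genes passing in both lines and the 3 most alike EGFR, ERBB3 and HBEGF. The members and lists were chosen with earlier results of these data known. Alternatives were DESeq2 1.42.0, other scaling and filters, the replicate block, a common fit, the side as covariate and leaving out each sample. The baseline against 1 LNCaP-AI library of side A was added after seeing the data. A few genes that this rule or a marker list takes in are not reported here.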

Additional observations from a re-analysis of the deposited data

Results flagged for a closer look

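The DOX effect differed between the lines for 2 members by a test of the difference itself (edgeR's interaction over all 12 samples). For ERBB2 the effect in LNCaP-AI minus that in DU-145 cells was 1.74 on the log2 scale (adjusted p = 0.000463), with lower levels in all 3 DU-145 DOX samples and higher levels in all 3 LNCaP-AI DOX samples than in any vehicle sample of the line. For HBEGF it was -1.23 (adjusted p = 0.00106, called in 18 of 19 alternatives), with higher levels in all 3 DOX samples of each line than in any of its vehicle samples.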

How the results depend on the processing

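The 8 members called in DU-145 cells, of 9 tested, became 2 in the fit of all 12 samples (4083 genes called in place of 7033), and their directions held in every alternative run. In LNCaP-AI cells, where 1 member and 2043 genes were called, DESeq2 gave 3517 genes, the common fit 2 members and 3933 genes, the side as a covariate 4 and 6271, and leaving out each sample 0 to 2 members and 1 to 3538 genes. For the difference between the lines, with 2 members and 1543 genes, no filter gave 884 genes, the covariate 6 members and 4109 genes, and leaving out each sample 2 to 6 members and 737 to 3471 genes. At baseline, with 6 members, leaving out each sample gave 3 to 9. The replicate numbers did not pair the samples (correlations of deviations -0.94 to 0.127), and with the replicate block 8 members and 6924 genes were called in DU-145, 0 and 0 in LNCaP-AI, 1 and 52 for the difference, where HBEGF lost its call (adjusted p = 0.0593), and 5 and 9378 at baseline. In the LNCaP-AI fit with the replicate block, 2909 genes had an unadjusted p under 0.05. Signs turned for ERBB3 in LNCaP-AI cells (0.03 with upper-quartile factors, 0.01 in the common fit, and -0.12 to 0.18 leaving out each sample), for NRG1 in the difference between the lines (0.21 with the covariate, -3.69 to 0.26 leaving out each sample), and at baseline against side A alone for ERBB2 (-0.14) and AREG (7.76), where that arm is 1 library assumed to vary like the DU-145 samples. The cause was not tested. NRG1 in LNCaP-AI and ERBB4 in both lines had too few counts for a test at this depth.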
